A study of Mus musculus with 2 samples.

Results

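The heat shock proteins and chaperonins were taken from the expression table by symbol, as every gene named Hsp followed by a number or by a, b, d, e or h, Hsph1, Dnaja, Dnajb or Dnajc, Cct2 to Cct8, Tcp1, Hsf1 or Hsf2. The choice used no measured value. It gave 86 of the 21041 genes in the table: 3 of the HSP90 family, 11 of the HSP70 family, 3 of the HSP110 family, 2 of the mitochondrial HSP60/HSP10 pair, 9 of the chaperonin TRiC, 45 J-domain proteins, 7 small heat shock proteins, 2 heat shock factors and 4 other symbols. Messenger RNA was sequenced from DP thymocytes, which carry both CD4 and CD8 and make up most of the thymus, in 1 WT library and 1 Cxxc1-deficient library (KO). Cxxc1 encodes a protein that binds unmethylated CpG DNA and belongs to the Setd1 complex, which methylates lysine 4 of histone H3. The WT mice of the study carried the floxed alleles without Cre (Cxxc1 fl/fl), with exons 4 and 5 flanked by loxP sites. The Cxxc1-deficient mice were Cxxc1 fl/fl hCD2-Cre, whose Cre acts from the early thymocyte stages onward and in other immune cells too, whereas the genotype label of that library reads Cxxc1+/-, so it was grouped by its title. Mice were 3 to 4 weeks old unless stated otherwise, and neither sex nor pooling was given for these libraries.

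Heat shock proteins are molecular chaperones, which bind unfolded or partly folded proteins and keep them from aggregating. HSP70 proteins bind short stretches of client protein and release them with cycles of ATP hydrolysis, which J-domain proteins start and HSP110 proteins help to complete by exchanging the nucleotide. Clients that need more help pass to HSP90 or to TRiC, the double-ring chaperonin that folds actin and tubulin, and the heat shock factors switch on many of these genes under stress.

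Several of the best known members have near-identical copies elsewhere in the genome, and because only uniquely mapped reads were kept, their values depend on how much of their sequence is unique. The pairs below show a 50-base stretch of coding sequence, the length of 1 read, for 6 such members and the same stretch at another place of the reference genome NCBIM37 (mm9), with capitals at the base that differs within each pair. They come from the minus strand for Hsp90aa1, Hspd1, Hspa1a and Hspa1b and from the plus strand for Hspa8 and Hspe1, and each copy is shown on the strand on which it matches.
Hsp90aa1, chr12:111933746-111933795: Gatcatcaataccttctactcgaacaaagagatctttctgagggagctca
copy, chr11:77107093-77107142: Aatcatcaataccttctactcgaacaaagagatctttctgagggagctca
Hspa8, chr9:40612658-40612707: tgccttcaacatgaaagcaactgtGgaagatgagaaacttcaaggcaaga
copy, chr1:10544436-10544485: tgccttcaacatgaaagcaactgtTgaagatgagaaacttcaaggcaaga
Hspe1, chr1:55147566-55147615: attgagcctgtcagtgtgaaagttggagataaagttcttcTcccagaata
copy, chr12:69191928-69191977: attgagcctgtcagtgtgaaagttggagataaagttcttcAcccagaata
Hspd1, chr1:55139927-55139976: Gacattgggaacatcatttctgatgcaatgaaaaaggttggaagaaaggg
copy, chr1:45234993-45235042: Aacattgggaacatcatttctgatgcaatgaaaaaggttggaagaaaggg
Hspa1a, chr17:35107193-35107242: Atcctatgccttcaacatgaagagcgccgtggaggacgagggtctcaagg
Hspa1b, chr17:35094275-35094324: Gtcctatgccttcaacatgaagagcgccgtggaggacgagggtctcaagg

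The share of unique sequence was measured as the percentage of 50-base windows within the coding exons that had no other place in mm9 with up to 2 mismatches. It was 0 for Hsp90aa1, Hspd1, Hspe1, Hspb1 and Dnaja1, 0.194% for Hspa8, 2.29% for Hspa1a, 2.45% for Hspa1b and 3.21% for Dnajb6. For Hspa1a and Hspa1b the other place was the other gene of the pair. For Hspa8 a window had a median of 6 other places, for Hspe1 and Dnaja1 3, and for Hspd1 and Hsp90aa1 2. The median of these 9 members was 9 in both libraries. The 61 members with at least 95% unique windows had medians of 60 and 50. Windows across exon junctions and untranslated exons were not counted, so a value above 0, such as the 70 of Dnaja1 in WT, can come from those. Values of these 9 members are therefore uncertain as levels, and a low value does not show that the gene was little expressed.

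**Figure D1:**
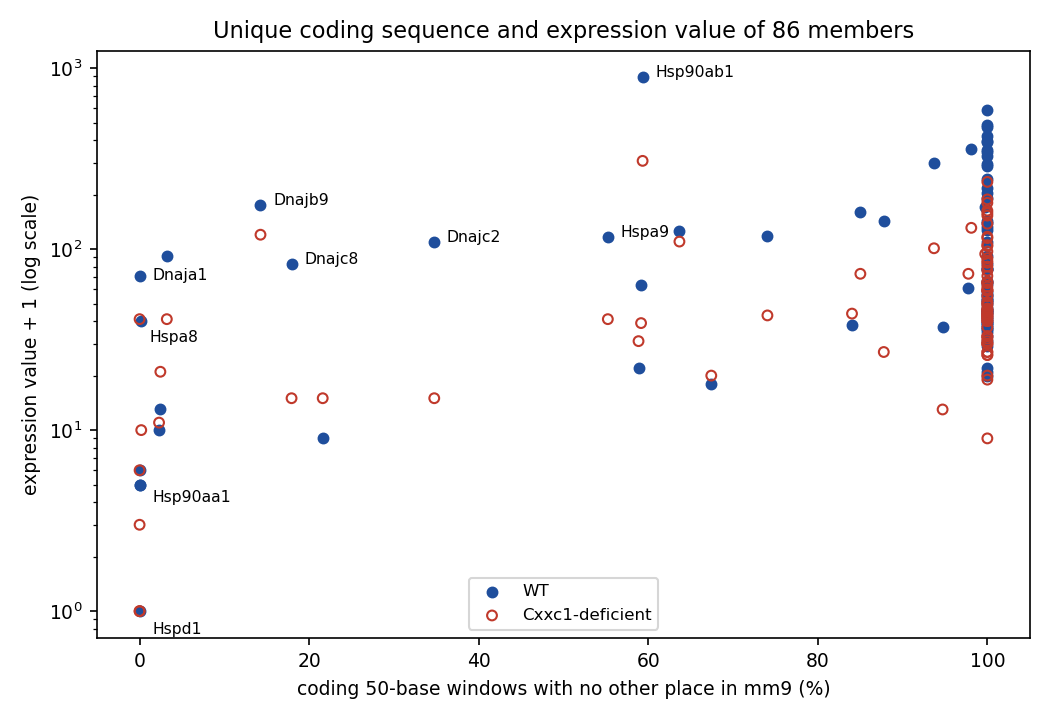
Expression value plus 1 (vertical axis, log scale, no unit stated by the authors) of the 86 members in WT (filled circles) and Cxxc1-deficient DP thymocytes (open circles), against the percentage of coding 50-base windows with no other place in mm9. At 0% the values in WT lie between 0 and 70, and the highest WT value, 886 for Hsp90ab1, belongs to a gene with 59.3% unique windows.

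The table gives 1 normalized value per gene and library, as a whole number. The spacing of low values against transcript length showed that 1 read on a transcript of 1 kb was worth about 4.06 in WT and 4.76 in KO, so the values are per length. The table then holds approximately 1311250 WT reads and 672096 KO reads on genes. Both libraries had a median of 36, and the sums over all genes were 1551994 and 981677. Cxxc1 itself stood at 91 and 50, a KO to WT ratio of 0.549. The 95th percentile of olfactory receptor genes, read below as unused genes, was 53.95 in WT and 57 in KO. The KO value of Cxxc1 therefore cannot be told from that of an unused gene, and the ratio does not measure how much was deleted. By qPCR the paper found its mRNA almost undetectable in deficient DP cells, and by western blot the loss of the protein. The 12 markers of DP thymocytes summed to 44448 and 14939, with 9 of the 12 at least 2-fold lower. In WT 12 of them lay above the olfactory percentile and in KO 11, with Ptcra below it at 44. Markers of the earlier DN thymocytes summed to 317 and 721, with 6 of 6 higher. Of these, Il2ra (63 and 207) and Notch1 (124 and 326) were past 2-fold. Kit (35 and 36), Cd44 (35 and 58), Il7r (32 and 42) and Hes1 (28 and 52) were below the olfactory percentile in WT. Markers of B cells (211 and 159), erythroid cells (104 and 129, Hba-a1 and Hba-a2 at 0 in both), macrophages and dendritic cells (268 and 259), stroma (294 and 232) and innate cells (185 and 157) mostly lay below these percentiles. Those above were Cd79b (74), Itgam (101), Pecam1 (119) and Gzma (102) in WT, and Itgam (107), Pecam1 (66) and Klf1 (64) in KO. Of 4 Y-linked genes, 0 were above 0 in WT and 4 in KO. Genotype, Y-linked expression, the ratio of DP to DN marker sums and depth differed together between the libraries, and their parts in the values of the members cannot be told apart. In bulk RNA, fewer cells of a type and less RNA per cell cannot be told apart either.

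With 1 library per genotype, no difference had a replicate check and no p-value was computed. A member was counted when its value changed at least 2-fold, over genes above 0 in both libraries. Intervals are 95% Clopper-Pearson intervals from the approximate reads; they cover counting error only and compare these libraries, not the genotypes.

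Of the 86 members, 83 were above 0 in both libraries. In KO 32 of the 83 fell at least 2-fold (38.6%, where 16.3% of all genes did), and 1, Dnajc4, rose at least 2-fold (1.20%, where 4.98% of all genes did). This split of 32 lower and 1 higher became 21 and 5 when the libraries were scaled to the same 75th percentile (7.54% and 11.3% of all genes). It became 14 and 8 when they were scaled to the same sum without the 100 highest genes (5.16% and 16.6% of all genes). In all, 61 members were lower, 20 higher and 2 equal, where 60% of all genes were lower. Scaled to the same 75th percentile 45 were lower (54.2%, and 39.8% of all genes), and to the same sum without the 100 highest genes 43 (51.8%, and 31.8%). The median log2 ratio of the members was -0.63, and that of all genes was -0.20. The counting interval of the ratio lay wholly below 1 for 37 members (44.6%, where 21.6% of all genes with a transcript length did) and wholly above 1 for 0 (2.23%), and it held 1 for 46. Of the 32 members past 2-fold, 30 had an interval wholly below 1, and the others were Dnajc15 and Dnajc5g. The summed value of all members was 10856 in WT and 5273 in KO, which is 0.699% and 0.537% of the sum of the table.

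The members were more highly expressed than most genes, and across the table the ratio fell with the level, so the counts were also taken by level, as the mean of both libraries. Under a mean of 50, 7 of 40 members fell at least 2-fold (17.5%, against 7.88% of all genes). Between 50 and 100 this was 9 of 20 (45.0%, against 20% of all genes). Between 100 and 300 it was 12 of 19 (63.2%, against 52.8%). At 300 and above it was 4 of 4, against 77.6% of all genes. The median log2 ratios of members and of all genes at these levels were -0.10 and 0, -0.76 and -0.53, -1.09 and -1.03, and -1.68 and -1.45. The median of the members minus that of all genes was -0.43 over the whole table and -0.10, -0.22, -0.06 and -0.23 within these levels. Members that were lower numbered 22 of 40, 16 of 20, 19 of 19 and 4 of 4 (47.4%, 82.6%, 94.9% and 96.8% of all genes), and the 1 that rose past 2-fold had a mean under 50 (6.98% of all genes at that level, against 0.657%, 0.581% and 0 at the higher levels).

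**Figure D2:**
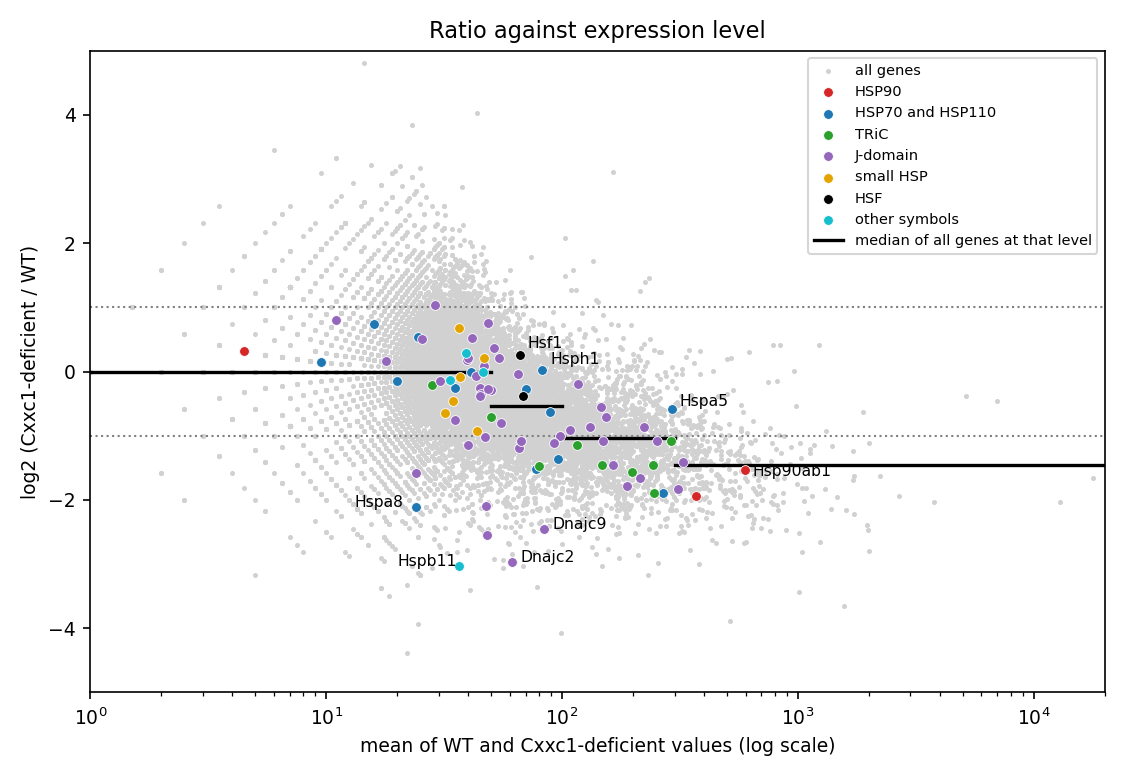
Log2 ratio of Cxxc1-deficient to WT value (vertical axis) against the mean of both values (horizontal axis, log scale) for all genes above 0 in both libraries (grey, 1 gene outside the drawn range) and for the 83 members (coloured by family). Black lines are the medians of all genes at 4 levels, from 0 under a mean of 50 to -1.45 at 300 and above, and dotted lines mark 2-fold; most coloured points lie along these medians, with Hspb11, Dnajc2, Dnajc8 and Dnajc9 lowest.

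How much of a low value is signal was read against 1122 olfactory receptor genes, which thymocytes are not known to use. Their median was 22 in WT and 24 in KO, and their 95th percentile was 53.95 and 57. Of the members, 47 lay above that percentile in WT and 34 in KO. A value at or below it cannot be told from that of an unused gene. Where only the KO value lay there, the size of the fold depends on that background. Among such members were Hspa4l, Hspa9, Cct3, Cct7, Dnajb6, Dnajc2, Dnajc9 and Dnajc14.

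The highest values per length among the members belonged to HSP90. Hsp90ab1 (mm9 chr17:45704724-45710220, minus strand), the constitutive cytosolic HSP90, had the highest value of all members, 886 in WT and 306 in KO. It fell 2.90-fold (interval 2.43 to 3.48), over approximately 550 and 162 reads. Hsp90b1, the HSP90 of the endoplasmic reticulum, which folds integrins and Toll-like receptors, had 585 and 152 and fell 3.85-fold (3.07 to 4.91). Hsp90aa1, the stress-inducible cytosolic form, stood at 4 and 5, about 3 reads in each library, a ratio of 1.25 with an interval from 0.157 to 8.74, and has 0 unique windows. Hsp90ab1 and Hsp90b1 were lower under each scaling of the libraries, and with the same sum without the 100 highest genes 1 of the 3 family members was past 2-fold.

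Among the HSP110 exchange factors, Hspa4 (mm9 chr11:53073316-53113959, minus strand) was the highest, at 421 in WT and 114 in KO, and fell 3.69-fold (2.99 to 4.57). Hspa4l, its close relative, had 139 and 54 and fell 2.57-fold (2.06 to 3.22). Hsph1, the heat-inducible HSP110, had 82 and 83, a ratio of 1.01 with an interval of the fold from 0.708 to 1.41, and was lower once the olfactory receptor median was subtracted. The intervals of Hspa4 and Hspa4l lay wholly above that of Hsph1, and all 3 genes have 100% unique windows and lie on different chromosomes (11, 3 and 5).

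In the HSP70 family 2 of 11 genes, Hspa8 and Hspa9, fell past 2-fold, a share near the 16.3% of all genes. Hspa5, also called BiP, the HSP70 of the endoplasmic reticulum, had the highest value of the family, 351 in WT and 234 in KO, and was 1.5-fold lower (1.20 to 1.87). Hspa9, the mitochondrial HSP70, had 115 and 40 and fell 2.88-fold (1.8 to 4.56). Hspa14, which works on the ribosome, had 108 and 70, a 1.54-fold lower value whose interval held 1 (0.959 to 2.65). Hspa5 stands apart from Hsp90b1 in the same compartment: the interval of Hsp90b1 began at 3.07 and that of Hspa5 ended at 1.87.

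Hspa8, the constitutive cytosolic HSP70 and a gene that most cells express strongly, was listed at only 39 in WT and 9 in KO, about 23 and 4.5 reads, and fell 4.33-fold (1.46 to 13.2). It has 3 unique windows of 1546. The heat-inducible pair Hspa1a and Hspa1b stood at 9 and 10 and at 12 and 20, and these values are uncertain for the same reason. Hspa13, a microsomal HSP70, had 77 and 64, and Hspa12a had 41 in both libraries. The testis-enriched Hspa2 had 38 and 32, Hspa1l had 20 and 29, and Hspa12b had 21 and 19, all within the olfactory range. Of the 11 genes, 7 were lower, 2 of them past 2-fold, with a median log2 ratio of -0.25. Of all genes 60% were lower and 16.3% past 2-fold, with a median of -0.20. At the same 75th percentile 4 were lower (39.8% of all genes) and the median of the family turned to 0.14, and without the 100 highest genes it turned to 0.31. The medians of all genes were then 0.19 and 0.36.

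The mitochondrial chaperonin could not be measured. Hspd1, the HSP60 barrel subunit, was listed at 0 in WT and 2 in KO, and Hspe1, its HSP10 lid, at 5 and 0, which is 1 read or none in each library, where a count of 0 allows up to 3 reads. Both have 0 unique windows, and the copies of Hspd1 lie on 13 chromosomes and those of Hspe1 on 6.

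TRiC is built from 8 different subunits, each present in each ring. All 8 were lower in KO under each scaling of the libraries, and 7 fell past 2-fold as deposited. Of all genes with a mean of 100 to 300, the level of 6 of these subunits, 94.9% were lower and 52.8% past 2-fold as deposited. In WT their values ran from 62 to 395, and in KO from 38 to 187. Cct5 (mm9 chr15:31520555-31531602, minus strand) had 387 and 104 and fell 3.72-fold (2.67 to 5.43), and Tcp1, the alpha subunit, had 296 and 100 and fell 2.96-fold (2.17 to 4.15). Cct7 fell from 117 to 42, Cct6a from 357 to 130 and Cct8 from 216 to 79, by 2.79-fold, 2.75-fold and 2.73-fold. Cct4 had 159 and 72 and fell 2.21-fold (1.48 to 3.26), and Cct2, the subunit of the highest value, had 395 and 187 and fell 2.11-fold (1.62 to 2.80). Cct3 had 62 and 38, 1.63-fold lower with an interval that held 1 (0.845 to 3.14), and only 59.2% of its windows are unique. The folds of the 8 subunits had a median of 2.74, and the intervals of the other 7 overlapped one another.

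Cct6b, which replaces Cct6a in testis, had 30 and 26, within the olfactory range. With it, 9 of 9 TRiC genes were lower and 7 past 2-fold, where 60% and 16.3% of all genes were. The summed value of the family was 2019 in WT and 778 in KO, 2.60-fold lower. At the same 75th percentile 8 of 9 were lower and 5 past 2-fold (39.8% and 7.54% of all genes). Without the 100 highest genes these were 8 and 2 (31.8% and 5.16% of all genes), and the gene whose direction turned in both was Cct6b.

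**Figure D3:**
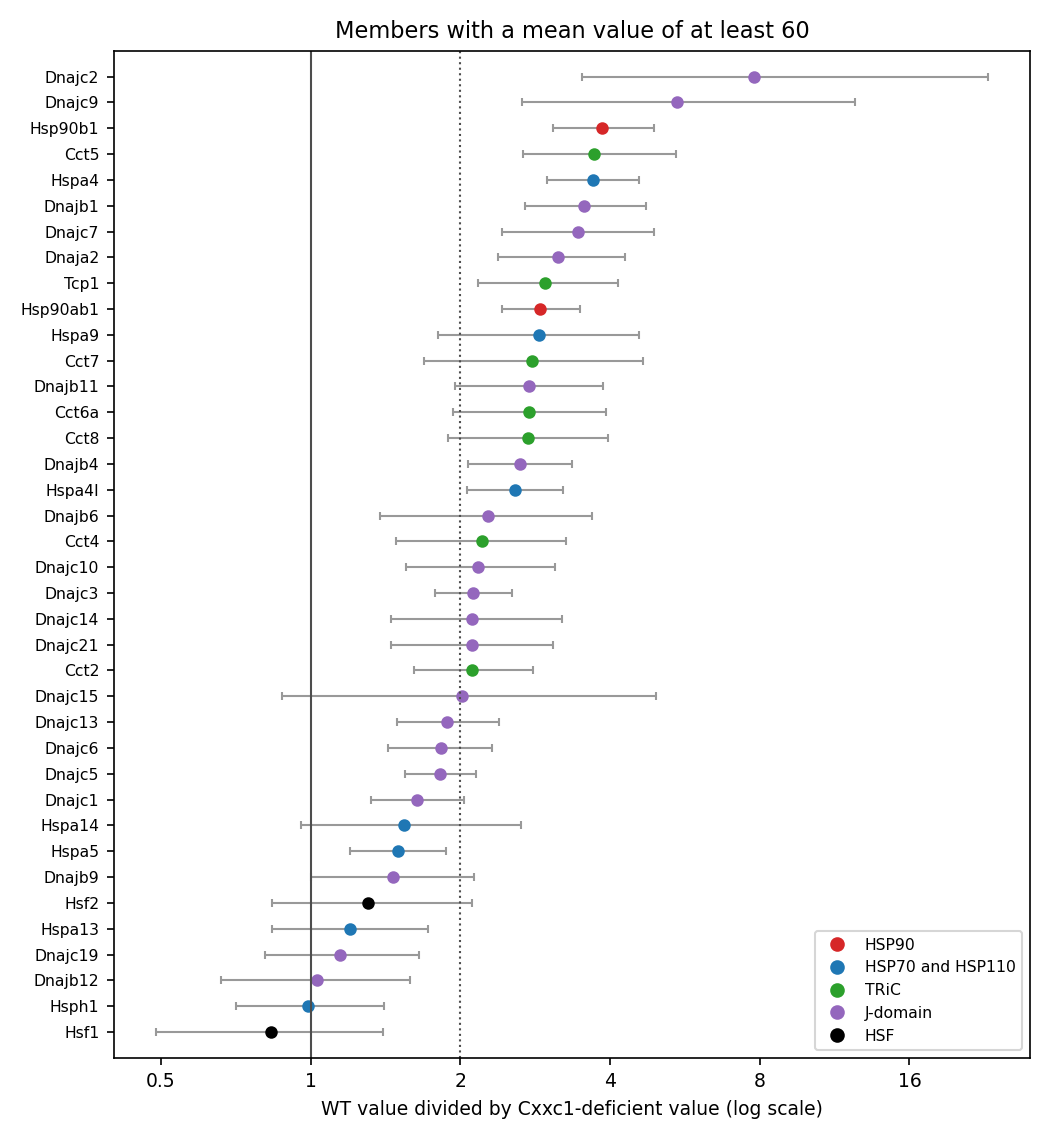
WT value divided by Cxxc1-deficient value (horizontal axis, log scale) for the 38 members with a mean of at least 60, with bars for the 95% Clopper-Pearson interval of counting error and colours for the family. The solid line marks equal values and the dotted line 2-fold; Dnajc2 lies highest at 7.79, 30 of the 38 bars lie wholly above 1, and Hsf1 lies lowest at 0.833.

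The J-domain proteins, which bring clients to HSP70 and trigger its ATP hydrolysis, were the largest group. Of 45, 34 were lower, 18 of them past 2-fold, and 11 were higher, 1 of them past 2-fold, where 60% of all genes were lower, 16.3% past 2-fold lower and 4.98% past 2-fold higher. At the same 75th percentile 25 were lower, 10 past 2-fold lower and 3 past 2-fold higher (39.8%, 7.54% and 11.3% of all genes). At the same sum without the 100 highest genes these were 24, 8 and 5 (31.8%, 5.16% and 16.6% of all genes). With a mean of at least 100, 13 of 13 were lower and 7 past 2-fold as deposited, where 95.2% and 56.8% of all genes at that level were. The summed value of all 45 was 5317 in WT and 2736 in KO. The median log2 ratio was -0.53 for Dnaja, -0.55 for Dnajb and -0.81 for Dnajc. When the libraries were scaled to the same sum without the 100 highest genes, the Dnaja and Dnajb medians turned to 0.03 and 0.01, and that of Dnajc stayed below 0, at -0.25.

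The general cytosolic J-domain proteins of the A and B classes had some of the highest values. Dnajb1 (mm9 chr8:86132074-86135801, plus strand), the classic HSP40, had 485 in WT and 137 in KO and fell 3.54-fold (2.70 to 4.72). Dnajb4, its close relative, had 473 and 179 and fell 2.64-fold (2.07 to 3.35). Dnaja2 had 324 and 103 and fell 3.15-fold (2.39 to 4.29). The values of all 3 lay above the olfactory range in both libraries.

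Dnaja1, the other abundant A-class protein of most cells, had 70 and 40 with 0 unique windows. Dnajb6, which suppresses aggregation of polyglutamine proteins, fell from 91 to 40 (2.28-fold, 1.38 to 3.68), with 3.21% unique windows. Dnajb12, a membrane protein of the endoplasmic reticulum, had 66 and 64, near equal values. Among the A class, Dnaja3 of the mitochondria had 49 and 41, and Dnaja4 had 45 and 58.

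Some members of the endoplasmic reticulum could be compared among themselves, in a list made after the values had been seen. The list may not hold every member of that compartment, so its counts describe the listed genes only. Dnajb11, a BiP cofactor of the lumen, had 242 in WT and 88 in KO and fell 2.75-fold (1.95 to 3.87). Dnajc10, a J-domain protein that reduces disulphides, had 126 and 58 and fell 2.17-fold (1.55 to 3.10), and Dnajc3, also called p58IPK, an inhibitor of the kinase PERK, had 344 and 162 and fell 2.12-fold (1.78 to 2.54). Dnajc1 had 190 and 116, 1.64-fold lower (1.32 to 2.03). Dnajb9, an inducible cofactor that BiP uses on the stress sensor IRE1, had 174 and 119, 1.46-fold lower (1.00 to 2.13), with only 14.3% unique windows. With Hspa5, Hsp90b1, Hspa13, Dnajb12 and Dnajc25 (51 and 39), 10 of 10 were lower and 4 past 2-fold, at folds from 1.03 to 3.85, where 60% and 16.3% of all genes were. All but Dnajc25 had a mean of at least 50, where 87.7% of all genes were lower and 34.9% past 2-fold. Between 100 and 300 these shares were 94.9% and 52.8%. At the same 75th percentile 7 were lower and 2 past 2-fold, and at the same sum without the 100 highest genes 6 and 1, with Hspa13, Dnajb9, Dnajb12 and Dnajc25 higher.

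The other Dnajc proteins each serve a separate task. Dnajc2 (mm9 chr5:21263085-21291069, minus strand), also called Mpp11, which works with Hspa14 on the ribosome, had 109 in WT and 14 in KO, about 57 and 6.3 reads. It fell 7.79-fold (3.51 to 23.0), the most of any member with a mean of at least 60, and 34.8% of its windows are unique. Its KO value lay below the olfactory receptor median of 24, so the size of this fall is uncertain. Dnajc9, a J-domain protein that is also a histone chaperone, had 142 and 26 and fell 5.46-fold (2.66 to 12.4), with 87.8% unique windows. Dnajc7, which carries clients between HSP70 and HSP90, had 293 and 85 and fell 3.45-fold (2.42 to 4.91). Dnajc21, which acts in the maturation of the large ribosomal subunit, had 203 and 96 and fell 2.11-fold (1.45 to 3.07), and Dnajc14 had 91 and 43 and fell 2.12-fold (1.45 to 3.20).

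Dnajc5, Dnajc6 and Dnajc13 were each lower by less than 2-fold. Dnajc5, the cysteine string protein, had 286 and 157, 1.82-fold lower (1.55 to 2.15). Dnajc6, also called auxilin, which strips clathrin coats, had 170 and 93, 1.83-fold lower (1.43 to 2.32), and Dnajc13, an endosomal protein, had 141 and 75, 1.88-fold lower (1.49 to 2.39). Each of these intervals lay above 1 and held 2, and all 3 genes have at least 95% unique windows. The paralogues of Dnajc5 were low, with Dnajc5b at 21 and 30 and Dnajc5g at 36 and 12.

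At the mitochondrial import motor, Dnajc19 had 125 and 109, 1.15-fold lower with an interval that held 1, and was higher at the same 75th percentile and at the same sum without the 100 highest genes. Its relative Dnajc15 had 131 and 65 and fell 2.02-fold, over 21 and 8.9 reads, with an interval that also held 1 (0.875 to 4.94). Nearest to the 2-fold line on either side were Dnajc15 at 2.02 and Dnajb5 at 2.03, and below it Hspb3 at 1.90 and Dnajc13 at 1.88.

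Of the J-domain genes, small heat shock proteins and other symbols with a mean under 60, those with the lowest ratios were Hspb11, Dnajc8 and Dnajc24, and Hspa8, described above, lay between Dnajc8 and Dnajc24. Hspb11 had 65 in WT and 8 in KO, a ratio of 0.123 with an interval from 0.00297 to 0.939, and rests on about 9.3 reads and 1 read. It is a subunit of the intraflagellar transport complex rather than a classic small heat shock protein. Dnajc8, which is found with splicing factors, had 82 and 14 and fell 5.86-fold (2.09 to 23.5), with 17.9% unique windows. Dnajc24, which takes part in making the diphthamide of elongation factor 2, had 77 and 18 and fell 4.28-fold (1.46 to 13.2). Beside these and Hspa8, the members under this mean that fell past 2-fold were Dnajb5 (63 and 31), Dnajb14 (55 and 25) and Dnajc5g (36 and 12).

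In the same groups those with the highest ratios were Dnajc4, Dnajc17 and Dnajc22. Dnajc4 had 19 and 39, a ratio of 2.05, over about 5.1 and 8.9 reads, with an interval from 0.634 to 8.01. Dnajc17 had 8 and 14, about 2 and 3 reads, a ratio of 1.75 with an interval from 0.201 to 21.0, and Dnajc22 had 36 and 61. All 3 intervals held 1. The 25 J-domain genes with a mean under 60, these included, had WT values from 8 to 82 with a median of 45, and KO values from 12 to 61 with a median of 40.

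The small heat shock proteins, which bind unfolding proteins without ATP, were low. Hspb1, the widespread one of them, was listed at 4 in WT and 0 in KO, about 1 read and none, with 0 unique windows. The other 6 had 28 to 57 in WT and 25 to 50 in KO, with 4 lower, 2 higher and 0 past 2-fold, and all 6 intervals held 1. Of all genes at their level, a mean under 50, 47.4% were lower, 7.88% past 2-fold lower and 6.98% past 2-fold higher. Hspb2, Hspb3, Hspb6 and Hspb7, which are best known from heart and skeletal muscle, lay in this range. The testis genes Hspa1l, Hspa2, Cct6b, Dnajb3, Dnajb8, Dnajb13, Dnajc5b, Dnajc5g and Hspb9, listed after their values were seen, had 20 to 50 in WT and 12 to 58 in KO. The median log2 ratio of the small heat shock proteins, -0.27, turned to 0.12 at the same 75th percentile and to 0.29 without the 100 highest genes.

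Both heat shock factors were present at similar values in both libraries. Hsf1, the main activator of the heat shock response, had 60 and 72, and Hsf2, which forms trimers with it, had 77 and 59. Their intervals held 1 (folds of 0.488 to 1.40 and 0.835 to 2.11), and Hsf2 turned higher at the same 75th percentile and without the 100 highest genes. The remaining symbols were Hspbap1 (46 in both libraries), Cct8l1 (35 and 43) and Hspbp1, an HSP70 exchange factor (35 and 32).

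**Figure D4:**
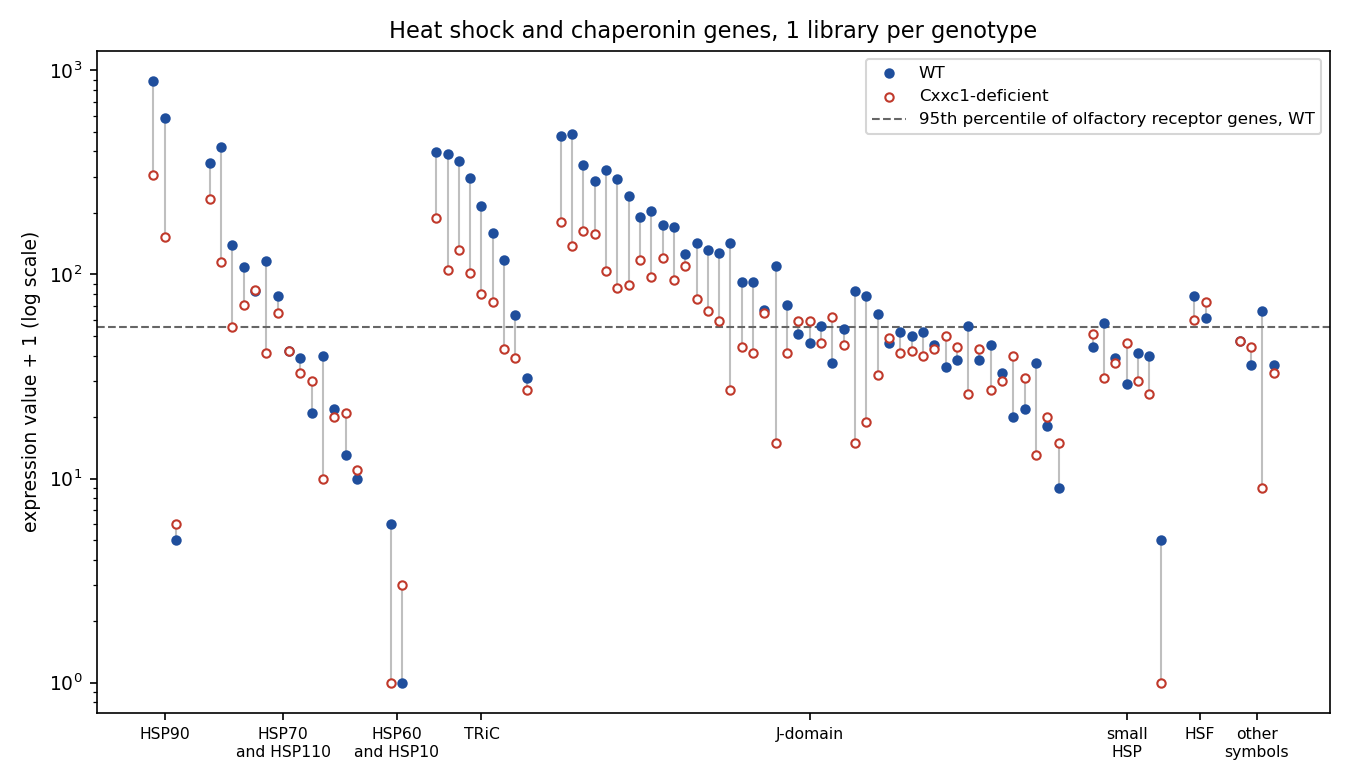
Expression value plus 1 (vertical axis, log scale) of each of the 86 members in WT (filled) and Cxxc1-deficient DP thymocytes (open), joined by a line per gene and ordered by mean within each family. The dashed line is the 95th percentile of olfactory receptor genes in WT, 53.95; 47 filled circles lie above it.

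The heat shock element, the site of the heat shock factors, is made of inverted repeats of the letters GAA. RefSeq promoters (build GRCm38.p6, another build than that of the expression table) were matched to 70 of the 86 members, and the 250 bases before each start were searched for GAANNTTC and TTCNNGAA, each of which reads the same on both strands. The letters were found in 17 of 70 members (24.3%) and in 2100 of 15686 genes of the table (13.4%), and over all 32851 promoter windows in 12.8%. The stretches below are from members whose values the account above turns on, with the motif in capitals, read on the strand of the gene.
Hspe1, chr1:55088058-55088087, plus strand: gttctagaaccTTCCGGAAggccccgcgcg
Hspd1, chr1:55088048-55088077, minus strand: cttccggaaggTTCTAGAAcggaccgtggc
Hspa1a, chr17:34972242-34972271, minus strand: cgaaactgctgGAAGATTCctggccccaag
Hspa1b, chr17:34959324-34959353, minus strand: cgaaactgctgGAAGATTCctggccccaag
Hsph1, chr5:149636351-149636380, minus strand: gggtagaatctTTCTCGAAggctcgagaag
Cct5, chr15:31601862-31601891, minus strand: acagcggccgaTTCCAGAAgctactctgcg
Cct2, chr10:117063399-117063428, minus strand: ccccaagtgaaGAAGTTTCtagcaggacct
Dnajb6, chr5:29735846-29735875, plus strand: ctccgagaatcTTCCGGAAcgctagaccag

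The stretches of Hspe1 and Hspd1 overlap, since these genes lie head to head, and those of Hspa1a and Hspa1b hold the same letters. A match is a description of the letters only. The 14 members with the letters and above 0 in both libraries had a median log2 ratio of -0.39, with 5 past 2-fold lower (35.7%, where 16.1% of such genes of the table were), and the 53 without them had -0.63, with 22 past 2-fold (41.5%, where 16.8% were). At a mean of at least 60 the order of the shares was the other way, with 5 of 6 (83.3%) and 16 of 25 (64.0%), where 42.0% and 40.7% of such genes of the table were past 2-fold lower. Members with the letters thus included both Cct5, which fell 3.72-fold, and Hsph1, at 82 and 83. RefSeq promoters were not matched for Dnajc2, Hspa8, Hsp90ab1, Hspa9, Cct4, Dnajc5, Dnajc11, Hspb2, Dnajc18, Hspa13, Dnajc30, Hsp90aa1, Hsf1, Dnajc5b, Dnajc12 and Dnajc22.

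Because Cxxc1 binds unmethylated CpG, the members were also divided by whether the 300-base promoter window was CpG-rich (at least 50% GC and a ratio of observed to expected CpG of at least 0.6). In DP cells the paper found Cxxc1 binding enriched at the centres of CpG islands, but only a small part of its binding sites coincided with them. A CpG-rich promoter therefore does not mark a gene as bound by Cxxc1. Of the 70, 54 were CpG-rich, with medians of 86.5 in WT and 52 in KO, and 24 of the 52 above 0 in both fell at least 2-fold (46.2%, where 22.3% of the CpG-rich genes of the table did). The 16 others had medians of 39 and 29.5, and 3 of 15 fell at least 2-fold (20.0%, where 10.6% of such genes did). Median log2 ratios were -0.84 and -0.08 for the members, and -0.40 and 0 for the genes of the table. The level differed between the classes together with the ratio. Among genes of the table with a mean of at least 60, 1269 of 3020 CpG-rich genes fell at least 2-fold (42.02%). Of the others at that mean, 262 of 727 did (36.04%). Their median log2 ratios, -0.88 and -0.77, lay closer together than those over all levels. Of the CpG-rich members at that mean, 20 of 30 fell at least 2-fold (66.7%). Only 1 member at that mean, Dnajc10, was not CpG-rich, so CpG content and level cannot be told apart for the members.

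Beside the members, 54 genes that help them were taken from a list, and 52 were above 0 in both libraries. Of these, 45 were lower, 21 of them past 2-fold, and 7 were higher, 0 of them past 2-fold, with a median log2 ratio of -0.84. Of all genes 60% were lower and 16.3% past 2-fold lower, and of those with a mean of at least 50 87.7% and 34.9%. At the same 75th percentile 38 were lower and 14 of them past 2-fold, with 3 past 2-fold higher, and at the same sum without the 100 highest genes 33, 9 and 3. Among 19 cofactors of HSP90 and HSP70, 16 were lower and 7 past 2-fold (13 and 6 at the 75th percentile, 12 and 6 at the sum). Chordc1, an HSP90 partner, had 657 and 198 (3.32-fold), Bag1, an HSP70 exchange factor, 216 and 45 (4.8-fold), and Cdc37, which brings kinases to HSP90, 121 and 31 (3.90-fold). Fkbp5, an HSP90 immunophilin induced by glucocorticoids, was higher at 107 and 168, and Stip1, which links HSP70 to HSP90, had 101 and 82 and was higher at both of those scalings.

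Prefoldin hands actin and tubulin to TRiC. In the list of 14 prefoldin subunits and TRiC helpers, 10 of the 12 above 0 in both were lower and 5 past 2-fold (8 and 4 at the 75th percentile, 8 and 1 at the sum, each with 1 past 2-fold higher), among them Pfdn4 with 114 and 19 (6-fold), Vbp1 with 182 and 62 (2.94-fold) and Pdcl, a phosducin-like helper of TRiC, with 284 and 100 (2.84-fold). Tbca and Pfdn5 were listed at 24 and 30 in WT and at 0 in KO, with 0 and 14.1% unique windows. Of the 11 folding factors of the endoplasmic reticulum, 11 were lower and 7 past 2-fold (10 and 4 at the 75th percentile, 9 and 2 at the sum), with Canx, a lectin chaperone, at 413 and 145 (2.85-fold) and Pdia3, its disulphide isomerase, at 284 and 80 (3.55-fold). Of 7 mitochondrial factors 6 were lower (5 at the 75th percentile, 2 at the sum) and 1, Clpx, a protease chaperone, was past 2-fold, at 109 and 48 (2.27-fold), as deposited but not at these scalings. In the list of 3 genes on heat shock factors, 2 were lower. Of these 1, Hsf4 at 31 and 14, was past 2-fold as deposited but not at these scalings. Hsbp1, which binds Hsf1, had 139 and 77. Over the whole table, 60% of genes were lower and 16.3% past 2-fold lower as deposited. Among genes whose mean reached 50, these shares were 87.7% and 34.9%. The shares over the whole table became 39.8% and 7.54% at the 75th percentile. At the sum they became 31.8% and 5.16%.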

How the data were processed

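Total RNA was extracted from DP thymocytes of WT and Cxxc1-deficient (KO) mice, and mRNA libraries were sequenced in 50-base reads. The authors mapped the reads to mm9, retained those that mapped uniquely and analysed them in the Partek suite. CASAVA 1.8.2 and Bowtie 1.0.1 are named in the submitters' processing notes; settings and annotation are not given in the sources used here. The deposited numbers are treated as a score: normalized expression per gene in whole numbers, for which the authors state no unit. There were 2 samples, 1 per group, and 0 columns of other samples.

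Ratios were taken between values above 0 in both libraries and called at 2-fold. The value of 1 read was estimated from the spacing of values among genes with 1 annotated transcript under 1500 bases (GENCODE vM1, whose genome NCBIM37 is the same build as mm9). With values proportional to reads per length, the constant of proportion was 246300 in WT and 210300 in KO. Of genes whose reads were worth at least 10, 39 of 83 and 70 of 131 gave whole reads within 0.1 (47.0% and 53.4%), against 10.9% and 18.0% with the constant moved by 15%. Reads and intervals are therefore approximate. Intervals are 95% Clopper-Pearson. Members had a median of 47.8 and 25.05 reads, and 13 had under 10 in WT. Unique windows were found with BLAST 2.17.0 over the coding exons of the transcript with the longest coding sequence. Scripts were tested on simulated data.

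Named were all HSP90, HSP70, HSP110, HSP60/HSP10 and TRiC genes and the heat shock factors, other members with a mean of at least 60 or listed at 0, and the 3 lowest and 3 highest ratios under that mean; any other gene was named with its values in view. Members, lists and marker lists were chosen with earlier results of these data known. Alternatives were other scalings, subtraction of the olfactory receptor median, kept zeros, a pseudocount of 10, filters on the mean and other folds. Leaving out members with under 50% unique windows was added after seeing the data. ChIP-seq data were not analysed here. The software was scipy 1.17.1, pysam 0.24.0, pandas 2.3.3, numpy 2.4.6 and matplotlib 3.10.9 under Python 3.11.15.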

Additional observations from a re-analysis of the deposited data

How the results depend on the processing

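The 32 members past 2-fold lower became 21 at the same 75th percentile, 14 at the same sum without the 100 highest genes, 16 at a mean of at least 100 and 13 at 3-fold. With the other alternatives there were 25 to 43, with 28 after leaving out the members with under 50% unique windows. The 1 member past 2-fold higher became 5, 8, 6 (olfactory median subtracted), 2 (zeros kept), 0 (pseudocount of 10), 0 (mean of at least 50), 0 (mean of at least 100), 5 (1.5-fold) and 0 (3-fold), the first 2 at the 75th percentile and the sum. The median log2 ratio, -0.63, became -0.24 at the 75th percentile, -0.064 at the sum, -0.99 with the olfactory median subtracted, -1.08 at a mean of at least 50 and -1.40 at 100. These scalings multiplied the KO values by 1.31 and 1.48 and moved the median of all genes by 0.39 and 0.56, and by construction the members' median stayed 0.43 below it, at -0.43. All genes past 2-fold lower numbered 3196 as deposited, 1477 at the 75th percentile and 1011 at the sum, and those past 2-fold higher 976, 2207 and 3258. With filters and other folds the counts follow from the genes left in, and for the olfactory subtraction the cause was not tested. Of the 54 members that the naming rule gave and that were above 0 in both libraries, 7 changed direction at the 75th percentile (Hspa13, Hspa2, Hspa12b, Cct6b, Hsf2, Dnajb12 and Dnajc19), 8 at the sum (these and Dnajb9) and 1 (Hsph1) with the olfactory median subtracted. Of the other members given in the text, Dnaja3, Dnajb3, Dnajc18, Hspb7 and Hspbp1 were also higher at both scalings and Dnajc25 at the sum. With the olfactory median subtracted, the ratios of 13 of the 54 left their counting intervals. Among them, that of Dnajc2 went from 0.128 to 0.0115 and that of Dnajc9 from 0.183 to 0.0167. No paired analysis was possible because there is only 1 KO and 1 WT library, with no replicate to pair or to leave out. Depth limits most the 13 members with under 10 reads in WT.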
